A study of Bos taurus with 30 samples.

Results

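The 8 microRNAs (miRNAs) described here, bta-miR-493, bta-miR-665, bta-miR-431, bta-miR-433, bta-miR-127, bta-miR-432, bta-miR-136 and bta-miR-370, are encoded at the DLK1 side of the imprinted DLK1-DIO3 region of cattle. They were chosen by this position and by name, and not by their values, although earlier results of these data were known. They are 8 of the 1030 miRNAs listed, and all 8 were above 0 in all 30 libraries and passed the filter on low values that left 387 miRNAs to be tested. Testis small RNA was sequenced from 30 Holstein-Friesian bull calves aged 12 weeks, 1 library per animal. From 2 weeks of age, 15 calves on the High plane of nutrition drank 10 L daily, made with 1.5 kg of milk replacer, with concentrate offered freely, for an expected gain of 1.0 kg/day. The 15 calves on the Moderate plane drank 4 L daily, made with 0.5 kg, and were given a concentrate ration of 0.5 kg, for an expected gain of 0.5 kg/day. Both groups were fed on milk replacer, and no further group was included.

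In mammals the DLK1-DIO3 region carries protein-coding genes read from the chromosome inherited from the father, among them DLK1, RTL1 and DIO3. From the mother's chromosome it gives long non-coding RNAs, among them MEG3, the RTL1 antisense RNA and MEG8, and a large number of miRNAs processed from such transcripts. Several of the miRNAs opposite RTL1 pair fully with the RTL1 transcript and direct its cleavage, so that a maternal RNA restrains a paternal gene. The region is known for its role in growth of the fetus and placenta and in muscle. In the cattle gene table of RefSeq (assembly ARS-UCD2.0, chromosome 21), 59 miRNA genes lie between DLK1 and DIO3, and the 8 genes are the 1st to the 8th of them counted from DLK1. MIR493 and MIR665 lie between MEG3 and RTL1 and inside neither. MIR431 lies inside the spans of RTL1 and PEG11AS, the antisense RNA of RTL1, and MIR433 and MIR127 lie inside RTL1. MIR432 and MIR136 lie inside both RTL1 and MEG8, whereas MIR370 lies inside MEG8 alone. The file names 1 mature miRNA for each gene and does not say which arm of the hairpin it is.

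The libraries held 6.0 to 19.98 M reads, and the values given below are CPM (read counts relative to library size) after TMM scaling (a step that brings the bulk of miRNAs to a common level). Moderate replicate 5 stood apart before any comparison was made. The share of miR-10b was 84.8% in that library and 37.0 to 49.0% elsewhere, and its TMM factor was 0.237 where the others were 0.900 to 1.23. Results are therefore given with and without it. The labels also conflict. The sample titles name the other diet for 18 of the 30 libraries, 9 in each group, and the groups used here follow the diet field, which matches the column names of the deposited table. Replicate numbers only name libraries and pair none.

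Mean levels of the members ran from 4.20 CPM for miR-431 to 14367 CPM for miR-127 in High calves. miR-127 was the 10th most abundant of the 387 tested miRNAs and made up 96.0% of the members' summed level in High and 96.3% in Moderate calves. The 8 together held 1.61% of library reads in High and 1.81% in Moderate calves. After miR-127 came miR-136, at a level 43.2-fold lower by the median ratio within a library, and then miR-493, another 3.83-fold lower. This order of miR-127, miR-136 and miR-493 held in all 30 libraries, as did miR-432 over miR-665, miR-665 over miR-370 and miR-370 over miR-433. Neighbours in the order that could not be ranked in every animal were miR-493 and miR-432, with miR-493 higher in 15 of 15 High but 11 of 15 Moderate libraries, and miR-433 and miR-431, with miR-433 higher in 8 of 15 High and 12 of 15 Moderate libraries. miR-431 and miR-433 rested on few reads, a median of 41 and 40 in High libraries, so that counting alone limits their precision.

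**Figure D1:**
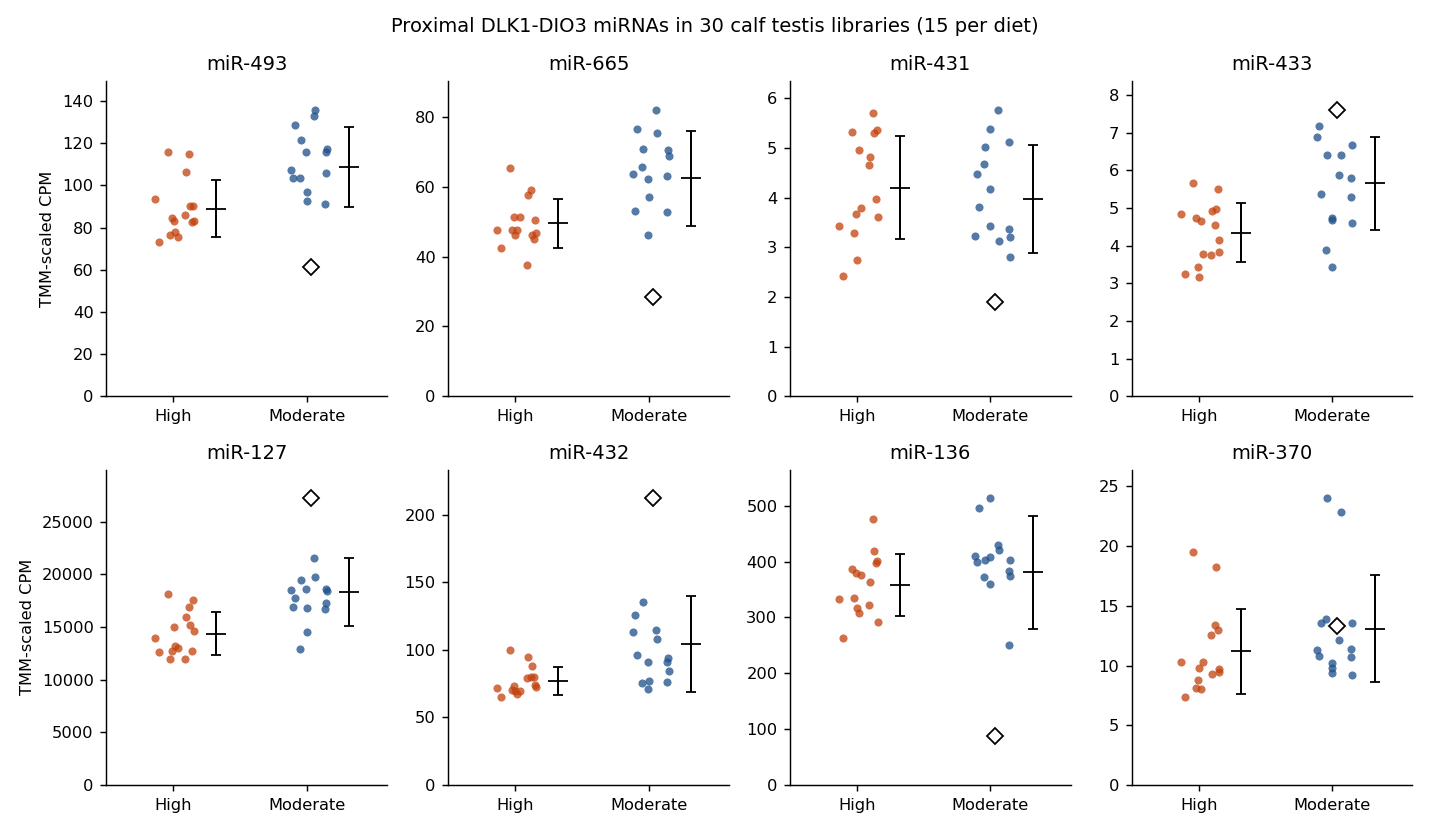
Level of each of the 8 miRNAs in every library on a linear axis of TMM-scaled CPM, with High and Moderate calves side by side and Moderate replicate 5 drawn apart as a diamond. For miR-127 all 15 High libraries lie below the Moderate median of 18397, and the diamond is the highest point for miR-127, miR-432 and miR-433 and the lowest for miR-493, miR-665, miR-431 and miR-136.

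The question the design poses is whether the early plane of nutrition altered testis miRNAs. Among the members, miR-127 and miR-432 were lower in High than in Moderate calves and no member was higher. miR-127, known for repressing BCL6 as well as RTL1, fell by 21.4% and miR-432 fell by 23.5%. The other 6 did not pass the test. miR-433, miR-493 and miR-665 had differences of similar size, and miR-370, miR-136 and miR-431 had intervals that included 0. Tests were by limma on log2(CPM + 0.5) with Benjamini-Hochberg adjustment over the 387 tested miRNAs, and log2 fold changes are High minus Moderate on that scale, which understates changes of the lowest miRNAs.

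Of the members inside RTL1, miR-127 ranged from 11938 to 18136 CPM in High calves with a median of 14010, and from 12947 to 27233 in Moderate calves with a median of 18397. All 15 High libraries were below the Moderate median and 5 were below every Moderate library, yet the ranges overlapped. The means were 14367 ± 2034 (SD, n = 15) and 18348 ± 3215 (SD, n = 15), a log2 fold change of -0.35 (SE 0.080, 95% interval -0.51 to -0.18, limma adjusted p = 0.0260). Without Moderate replicate 5, the highest library of all, the Moderate mean was 17714 ± 2151 (n = 14) and the log2 fold change was -0.30 (limma adjusted p = 0.00645).

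miR-432 ranged from 65.2 to 99.5 CPM with a median of 73.2 in High calves, and from 71.2 to 212 with a median of 94.0 in Moderate calves. In High calves 13 of 15 libraries were below the Moderate median, and 5 of 15 were below every Moderate library. Means were 76.9 ± 10.1 (SD, n = 15) and 104 ± 35.5 (SD, n = 15), with a log2 fold change of -0.39 (SE 0.11, 95% interval -0.62 to -0.16, limma adjusted p = 0.0409). The value of 212 belonged to Moderate replicate 5. Without it the Moderate mean was 96.6 ± 19.97 (n = 14) and the log2 fold change was -0.31 (limma adjusted p = 0.0154).

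miR-433 was low, at 3.16 to 5.66 CPM (median 4.54) in High and 3.44 to 7.61 (median 5.81) in Moderate calves. All 15 High libraries were below the Moderate median. The log2 fold change of -0.34 (SE 0.10) had a limma adjusted p of 0.0529, and without Moderate replicate 5 it was -0.30 with an adjusted p of 0.0428. miR-431 was the one member with a positive estimate. It ranged from 2.43 to 5.71 CPM (median 3.98) in High and from 1.90 to 5.77 (median 3.80) in Moderate calves, and the groups overlapped almost fully. Its log2 fold change was 0.08 (95% interval -0.18 to 0.35, limma adjusted p = 0.768).

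miR-136 ranged from 262 to 477 CPM (median 364) in High and from 87.5 to 513 (median 402) in Moderate calves. The lowest value, 87.5, was that of Moderate replicate 5, and the next lowest of all libraries was 250. Its log2 fold change was -0.02 (95% interval -0.34 to 0.31, limma adjusted p = 0.952), and without that library -0.16 (adjusted p = 0.181). Leaving out that library moved its estimate more than that of any other member.

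The pair between MEG3 and RTL1 gave nearly the same picture as each other. miR-493, for which IGF1R is a known target, ranged from 73.1 to 116 CPM (median 84.6) in High and from 61.4 to 135.9 (median 107) in Moderate calves. miR-665 ranged from 37.6 to 65.5 (median 47.6) in High and from 28.5 to 82.1 (median 63.6) in Moderate calves. For miR-493, 13 of 15 High libraries were below the Moderate median, and for miR-665 14 of 15. In both cases Moderate replicate 5 was the lowest library of all, opposite to the rest of its group. With it, the log2 fold changes were -0.28 (SE 0.090, limma adjusted p = 0.0638) for miR-493 and -0.30 (SE 0.11, limma adjusted p = 0.0820) for miR-665. Without it they were -0.34 and -0.38, both with an adjusted p of 0.00645.

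miR-370, which is known to target CPT1A, an enzyme of fatty acid oxidation, lies farthest from DLK1. It ranged from 7.37 to 19.5 CPM (median 9.75) in High and from 9.18 to 24.0 (median 11.4) in Moderate calves. The log2 fold change was -0.21 (95% interval -0.50 to 0.08, limma adjusted p = 0.412). The 4 highest libraries came from both diets: 24.0 and 22.8 CPM in Moderate replicates 1 and 6, and 19.5 and 18.2 in High replicates 6 and 11. The next highest was 13.9.

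**Figure D2:**
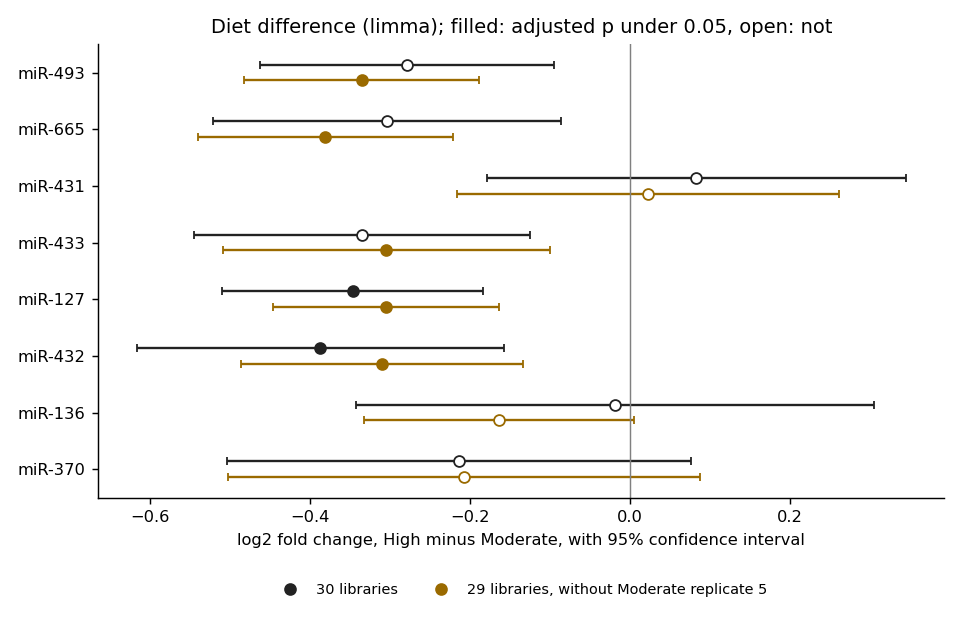
Log2 fold change, High minus Moderate, of each of the 8 miRNAs with its 95% interval from limma, for all 30 libraries and without Moderate replicate 5. The estimates for miR-127, miR-432, miR-433, miR-493 and miR-665 lie between -0.28 and -0.39 in both fits, and the interval of miR-136 is the one that narrows most when that library is left out.

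As a group, 2 of the 8 passed the threshold downward and 0 upward, where 10 of 387 tested miRNAs, or 2.58%, did so downward. At an unadjusted p under 0.05 there were 5 members and 82 of the 387. The median log2 fold change was -0.29 over the members and 0.03 over all tested miRNAs, and 7 of 8 members were negative where 43.7% of all tested miRNAs were. When Moderate replicate 5 was left out, 5 members passed downward, where 26 of 385 tested miRNAs, or 6.75%, did. All 15 High libraries were below the Moderate median for 2 members, miR-127 and miR-433, and for 9 of all 387, or 2.33%.

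The count of 2 moved with the method and with single libraries. On reads recovered from the deposited values, edgeR's quasi-likelihood test called the same 5 members lower in all 30 libraries (miR-127, miR-493 and miR-665 at an adjusted p of 0.0196, miR-432 at 0.0271 and miR-433 at 0.0334), where 5.57% of the miRNAs it tested were called lower. DESeq2 called 5 members lower, where 3.58% of 838 miRNAs were. These 838 were all miRNAs with any reads, without the filter on low values, so this share is not comparable with the shares from limma and edgeR. With library totals alone and no TMM factor, limma called 0 members and 0 of 389 miRNAs, with 61 miRNAs at an unadjusted p under 0.05 and 0 of the members among them. The same scaling without Moderate replicate 5 called 3 members lower (miR-127 at a limma adjusted p of 0.0405, miR-493 at 0.0284 and miR-665 at 0.0253). It called 31 of 389 miRNAs, 8 of them lower and 23 higher. With all 30 libraries it moved the median of all miRNAs to 0.21. Relative to the median, miR-127 was then at -0.35 and miR-432 at -0.39, against -0.38 and -0.42 with TMM. Only miR-136 among the members changed sign, to 0.19. By limma with median-of-ratios or upper-quartile scaling in place of TMM, miR-432 did not pass (adjusted p = 0.0561 and 0.0798), while miR-493 did (0.0255 and 0.0492) and miR-127 passed in both (0.0193 and 0.0489). Leaving out High replicate 5 ended the call of miR-127 (log2 fold change -0.34, limma adjusted p = 0.0520), and 0 of 385 miRNAs passed, with 75 at an unadjusted p under 0.05. In the other 29 leave-one-out fits miR-127 passed. miR-432 passed in 13 of 30 such fits, miR-433 in 6, miR-493 in 3 and miR-665 in 1. The call of miR-432 ended without High replicate 1, 2, 3, 4, 5, 8, 10, 12, 13, 14 or 15 and without Moderate replicate 1, 4, 6, 8, 9 or 13, with adjusted p from 0.0526 to 0.0768, while its log2 fold change stayed between -0.36 and -0.39.

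The conflict in the labels bears on each of these values. In the 18 libraries whose title names the other diet, grouped by the diet field, the log2 fold change was -0.23 for miR-127, -0.25 for miR-432, -0.31 for miR-433, -0.30 for miR-493 and -0.36 for miR-665. In the 12 libraries whose labels give 1 diet only it was -0.53 for miR-127, -0.59 for miR-432, -0.38 for miR-433, -0.24 for miR-493 and -0.22 for miR-665. Without Moderate replicate 5, which is 1 of those 12, the same values were -0.45, -0.42, -0.33, -0.40 and -0.44, and 0 members passed, with 5 members among 69 miRNAs at an unadjusted p under 0.05. No member passed in either subset by limma, and no other miRNA did. At an unadjusted p under 0.05 there were 6 members among 58 miRNAs in the 18 libraries and 3 members among 43 in the 12. Grouped by the titles, 0 members passed, 0 of 387 miRNAs passed and 11 were at an unadjusted p under 0.05. Which label is right was not tested.

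By depth, 24 libraries were under 12 M reads (11 High and 13 Moderate) and 6 above. In the 24, miR-127 passed (log2 fold change -0.39, limma adjusted p = 0.0374) and it alone of the 8, where 3 of 385 miRNAs passed, 2 of them lower and 1 higher. With Moderate replicate 5 left out, 3 members passed downward among these libraries, miR-127, miR-493 and miR-665. Of all 383 miRNAs tested there, 31 passed, 19 of them lower and 12 higher. In the 6 deeper libraries, 4 High and 2 Moderate, the difference in mean log2 value was -0.24 for miR-127, -0.33 for miR-432 and -0.33 for miR-665. It was -0.26 for miR-493, -0.24 for miR-433 and -0.19 for miR-136, and positive for miR-431 (0.57) and miR-370 (0.12). The smallest p an exact permutation test of 4 against 2 allows is 0.0667, so these stand as values only.

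Testis tissue holds several cell types, and in bulk RNA fewer cells of a type and less RNA per cell cannot be told apart. Of the 3 miRNAs listed as markers of meiotic and later germ cells, 2 were higher in High calves. miR-34b was at 0.73 and miR-34c at 0.96 on the log2 scale (limma adjusted p = 0.0313 and 0.0260), while miR-449a was at 0.02. Whether testes of calves of this age held such cells was not tested. The summed level of the 3 ranged from 89.3 to 265 CPM in High and from 21.9 to 185 in Moderate calves, and the 21.9 was Moderate replicate 5. Without that library miR-34b was at 0.68 and miR-34c at 0.79 (limma adjusted p = 0.0201 and 0.0107), and miR-449a at 0.01. None of the 2 gonadal somatic markers, 2 smooth muscle, 2 endothelial, 3 red blood cell, 5 leukocyte, 3 striated muscle, 4 epithelial and 3 neural markers tested passed. The gonadal somatic sum ranged from 3672 to 4590 in High and from 1893 to 5057 in Moderate calves, where the 1893 was again Moderate replicate 5. That library also had the highest red blood cell sum, 7927 CPM, where the Moderate median was 1062 and the highest High value 3606. Its endothelial and striated muscle sums, 5125 and 3.33 CPM, were the lowest of all. Its smooth muscle, leukocyte, epithelial and neural sums lay within the range of the other libraries. The liver marker miR-122 was between 0 and 2.84, and 2 of the 5 striated muscle markers were at 0 in all libraries. The part of these cell types in the lower miR-127 and miR-432 was not tested.

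Ratios between members within a library depend on the scaling of that library only through the 0.5 added to each scaled value. This weighs most on the lowest members, such as miR-431, and ratios with library totals alone were not computed. In all, 28 pairs were compared by permutation test with adjusted p-values over the pairs. For miR-127 and its neighbours in gene order, the log2 ratio of miR-433 to miR-127 differed between diets by 0.01 (SE 0.088, permutation adjusted p = 0.892) and that of miR-127 to miR-432 by 0.04 (SE 0.079, adjusted p = 0.809). With 2 added in place of 0.5, these differences were 0.08 and 0.03 (permutation adjusted p = 0.519 and 0.809). Neither passed in either case, and a missed threshold does not show equality.

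The 4 pairs past the threshold all involved miR-431. The log2 ratio of miR-493 to miR-431 was 4.27 in High and 4.63 in Moderate calves, a difference of -0.36 (SE 0.11, permutation adjusted p = 0.0388). The ratio of miR-665 to miR-431 differed by -0.39 (SE 0.12, permutation adjusted p = 0.0388). Relative to miR-127 and to miR-432, miR-431 was higher in High calves by 0.43 and 0.47 (permutation adjusted p = 0.0482 for both). With 2 added in place of 0.5, the 4 differences were -0.33, -0.36, 0.41 and 0.44 (permutation adjusted p = 0.0121, 0.0121, 0.0121 and 0.0178). In proportion to these 4 members miR-431 was thus higher in High calves, while its own level did not pass the test. Without Moderate replicate 5, where miR-431 rested on 4 reads, the same 4 differences were -0.36, -0.40, 0.33 and 0.33, and 0 pairs passed (permutation adjusted p = 0.0535, 0.0535, 0.0876 and 0.0876, with 7 pairs at an unadjusted p under 0.05).

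Members were also related to each other within each diet, over 15 animals at a time. In High calves Spearman's coefficient was positive for 28 of 28 pairs, with a median of 0.52 and a range of 0.12 to 0.78, and 9 pairs passed at an adjusted p under 0.05. In Moderate calves it was positive for 22 of 28 pairs, with a median of 0.28 and a range of -0.26 to 0.93, and 4 pairs passed. Without Moderate replicate 5 the Moderate median was 0.45, and 5 pairs passed. The median over all pairs of tested miRNAs was 0.00 in High and 0.02 in Moderate calves. The order of the diets turned with the scaling. With library totals alone the member median was 0.39 in High calves, with 0 pairs passing, and 0.51 in Moderate calves, with 4 passing, and the medians over all pairs of tested miRNAs were 0.10 and 0.32. That Moderate median was 0.39 without Moderate replicate 5, against 0.19 for all pairs. Values of 1 library share its scaling, and the difference between the diets in these medians was not tested.

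**Figure D3:**
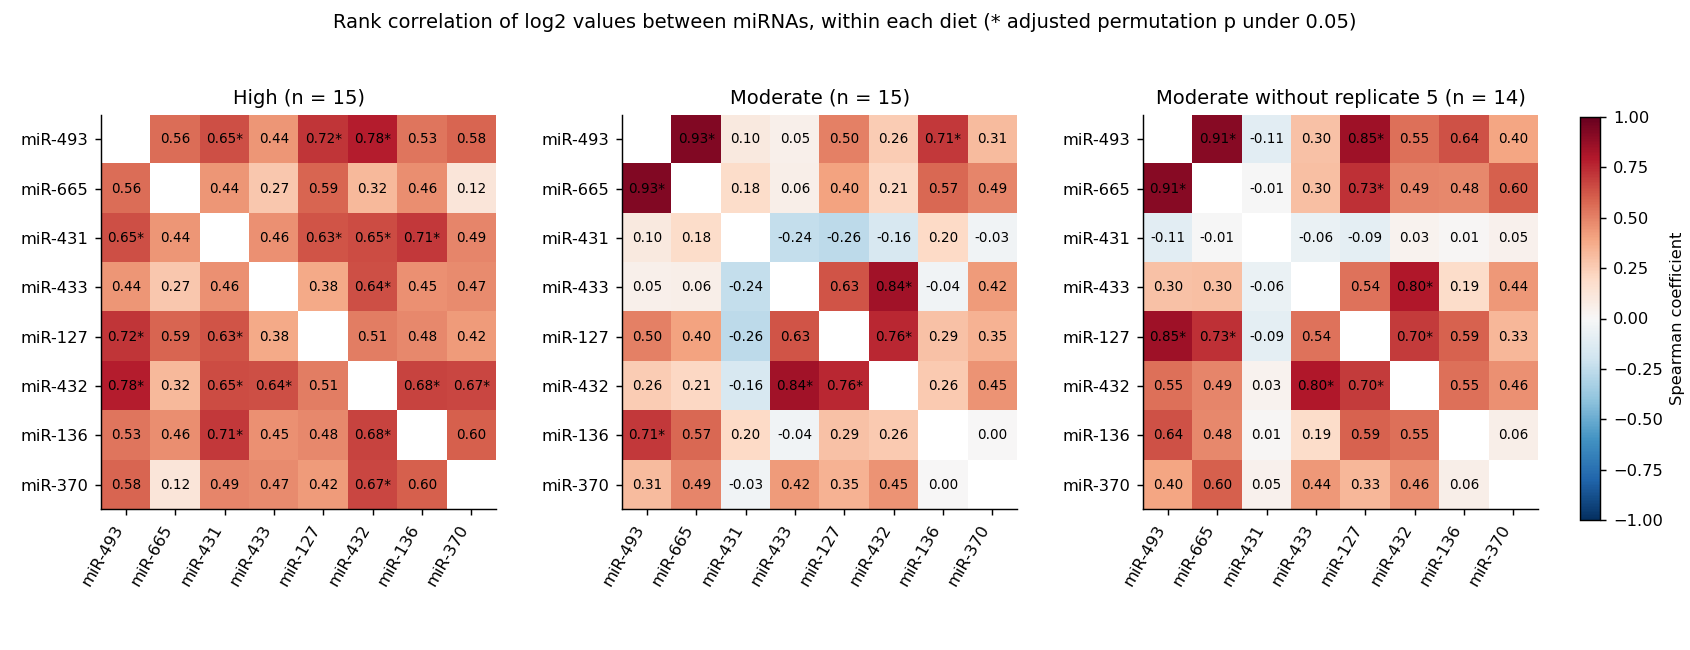
Spearman's coefficient between each pair of the 8 miRNAs within High calves (n = 15), within Moderate calves (n = 15) and within Moderate calves without replicate 5 (n = 14). The High panel is positive throughout (0.12 to 0.78), and in both Moderate panels the row of miR-431 stays between -0.26 and 0.20 while miR-493 and miR-665 stand at 0.93 and 0.91.

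In Moderate calves the closest pair was miR-493 and miR-665, the neighbours between MEG3 and RTL1, whereas in High calves 12 pairs had a higher coefficient, led by miR-493 and miR-432 at 0.78. In Moderate calves Spearman's coefficient was 0.93 and Pearson's r 0.967 (permutation p = 1e-05 for each, the smallest 100000 resamples can give, adjusted p = 0.00028), and r was 0.916 without the 2 libraries farthest from the median of miR-493. Spearman's coefficient was 0.91 without Moderate replicate 5. In High calves Spearman's coefficient was 0.56 (permutation p = 0.0334, adjusted p = 0.0719) and r 0.731 (permutation p = 0.00186, adjusted p = 0.0106). That r was 0.425 without the 2 farthest libraries. Leaving out the libraries most extreme in miR-493 also narrows its range, and the drop was not tested.

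Inside RTL1, miR-432 and miR-433 moved together in both diets. Spearman's coefficient was 0.84 in Moderate (permutation p = 0.00026, adjusted p = 0.00364; r 0.784, p = 0.00048) and 0.64 in High calves (permutation p = 0.0113, adjusted p = 0.0396; r 0.647, p = 0.00877), and without the 2 farthest libraries r was 0.753 and 0.556. miR-127 and miR-432 had a Spearman coefficient of 0.76 in Moderate calves (permutation p = 0.00148, adjusted p = 0.0138; r 0.819, p = 0.0003) and of 0.51 in High calves (adjusted p = 0.100). Without the 2 farthest libraries the Moderate r was 0.621. miR-127 and miR-493 had a Spearman coefficient of 0.72 in High calves (permutation p = 0.00367, adjusted p = 0.0386; r 0.792, p = 0.00036) and 0.50 in Moderate calves (adjusted p = 0.233), where leaving out Moderate replicate 5 raised it to 0.85 (permutation p = 0.00019, adjusted p = 0.00266).

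**Figure D4:**
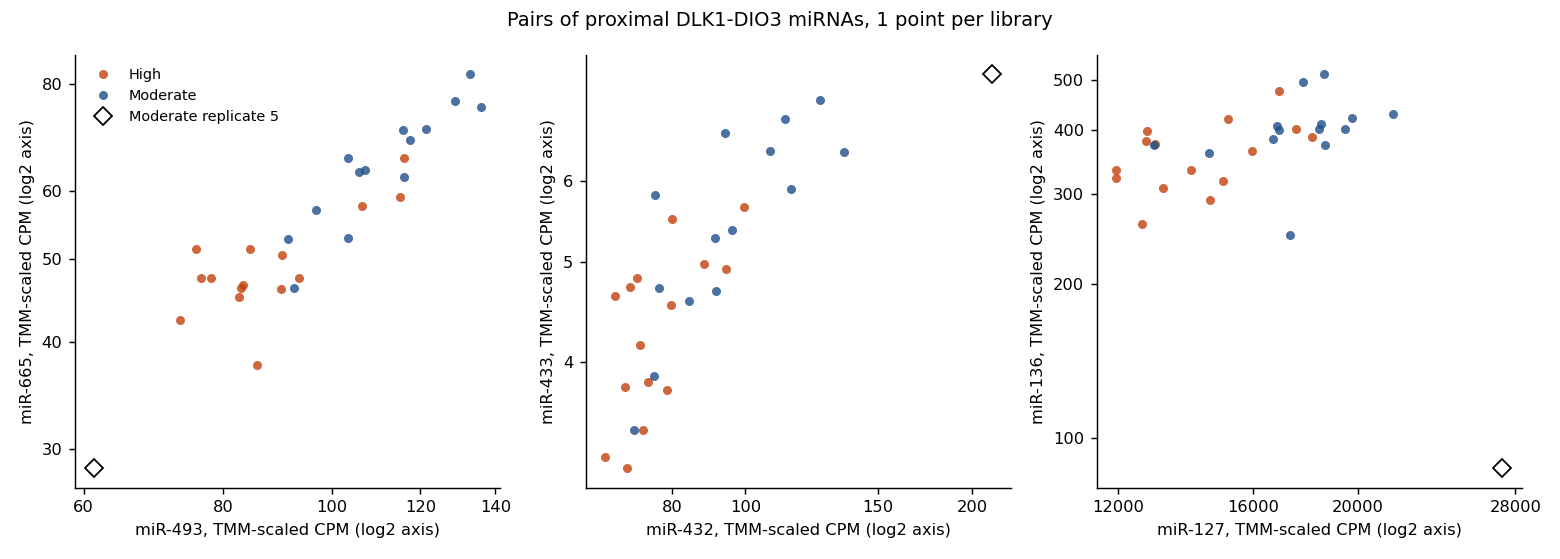
Levels of 3 pairs of members in each library on log2 axes of TMM-scaled CPM, miR-493 with miR-665, miR-432 with miR-433, and miR-127 with miR-136, with 1 point per library. Moderate replicate 5 (diamond) has the lowest level of both members in the first pair and the highest of both in the second, and in the third it combines the highest miR-127 (27233) with the lowest miR-136 (87.5).

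The Spearman coefficient of miR-431 with the other 7 was 0.44 to 0.71 in High and -0.26 to 0.20 in Moderate calves, a difference that was not tested. With library totals alone these ranges were 0.34 to 0.65 and 0.29 to 0.56. Without Moderate replicate 5 the Moderate range was -0.11 to 0.05 with TMM and 0.12 to 0.45 with library totals alone. The contrast thus depends on the scaling and on that library. For miR-431, counting noise alone would give a coefficient of variation of 16.04% in High calves, and 24.5% was observed. For miR-433 these were 15.5% and 18.2%. For miR-370 counting would give 9.78% and 32.1% was observed, and for miR-127 these were 0.268% and 14.2%. Observed values also hold the spread between separate animals. The counting values cover sampling of reads only, since the labels name no molecular identifiers. The spread of 13.1 to 15.5% was close for miR-493, miR-665, miR-127, miR-432 and miR-136 in High calves, although their mean levels ran from 49.5 to 14367 CPM.

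**Figure D5:**
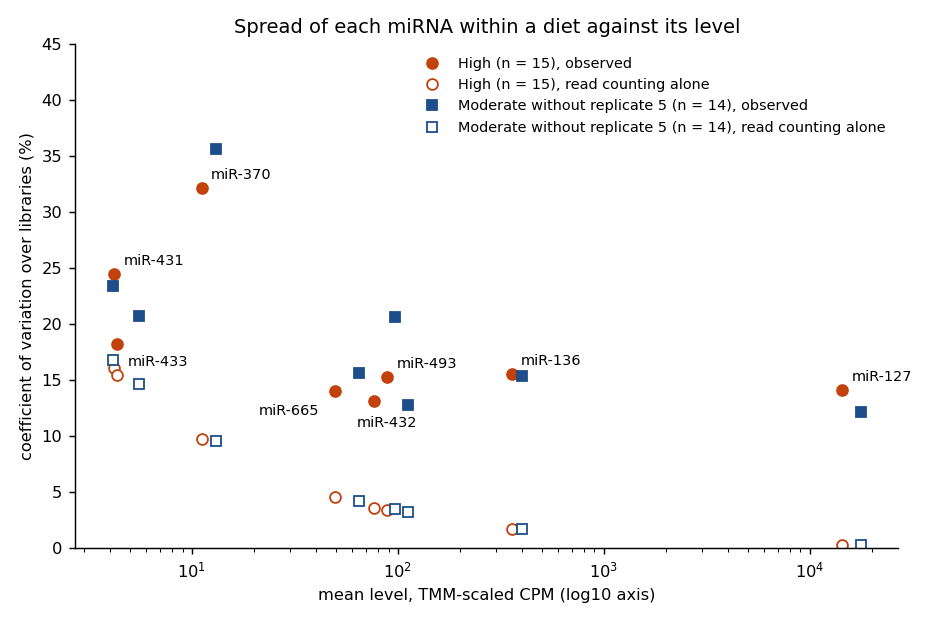
Coefficient of variation over the libraries of a diet against the mean level (log10 axis), observed (filled) and expected from read counting alone (open), for High calves and for Moderate calves without replicate 5. In High calves the observed and counting values were 24.5 and 16.04% for miR-431 and 18.2 and 15.5% for miR-433, and miR-370 stands highest at 32.1%.

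Moderate replicate 5 split the members by value. Relative to the other 29 libraries, miR-127, miR-432 and miR-433 were above all of them (27233 against 11938 to 21557, 212 against 65.2 to 135, and 7.61 against 3.16 to 7.18 CPM). miR-136 was at -8.62 SD from the mean of the other 29, and miR-493, miR-665 and miR-431 were below all of the others as well. miR-370, at 13.3 CPM, lay within their range. In CPM without TMM scaling all 8 were below the other 29, miR-127 at 6447 against 12656 to 21564.

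The rest of the region was set beside the members through a list of 52 other miRNA names, of which 37 were tested. Of these, 6 fell, 0 rose and 31 did not pass, and 35 were negative with a median of -0.24, against -0.29 for the members. Over all tested miRNAs 10 of 387, or 2.58%, were called lower, and 43.7% were negative. When Moderate replicate 5 was left out, 17 of 37 passed downward with a median of -0.27, where 26 of 385, or 6.75%, did over all. These totals include the members and this list, which hold most of the miRNAs called lower. The 3 most abundant were miR-411a at 9411 ± 1268 (SD) in High and 10809 ± 1747 in Moderate calves (log2 fold change -0.19, limma adjusted p = 0.164), miR-410 at 593 ± 81.2 and 717.5 ± 94.2 (-0.28, adjusted p = 0.0260) and miR-380-3p at 278 ± 40.6 and 307 ± 61.0 (-0.12, adjusted p = 0.529). Taken relative to the mean log2 level of the tested others, no member passed. The lowest permutation adjusted p was 0.0654, for miR-431 at 0.31. Without Moderate replicate 5, miR-431 at 0.28 (permutation p = 0.0156) and miR-665 at -0.13 (permutation p = 0.0136) both had an adjusted p of 0.0624, and miR-493 at -0.08 (permutation p = 0.0319) one of 0.085.

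Likeness of pattern was measured by Spearman's coefficient of log2 values over the 30 libraries after the diet mean was subtracted. Outside the members, miR-127 was nearest to miR-379 (0.73), miR-487b (0.62), miR-410 (0.61), miR-3956 (0.61) and miR-411a (0.61), all 5 of them on the list of the rest of the region, and its median with all other tested miRNAs was -0.04. Of the members, miR-432 ranked 2nd among all miRNAs by likeness to miR-127 (0.64) and miR-493 8th (0.60). Without Moderate replicate 5, miR-493 ranked 1st (0.79) and miR-432 11th (0.62), and miR-379, outside the members, ranked 7th (0.71). miR-136 was nearest to miR-380-3p (0.87) and miR-432 to miR-382 (0.78), both on the same list. miR-433 and miR-370 were nearest to miR-432 (0.76 and 0.58), and miR-493 and miR-665 to each other (0.82). miR-431 was nearest to miR-6525 (0.65), which is not on the list.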

How the data were processed

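Small RNA libraries were made from total testis RNA (Qiagen RNeasy Plus Universal, Illumina TruSeq small RNA kit, per the labels' protocols). Tools named in the submitters' processing notes are cutadapt 2.6, edgeR 3.5, FastQC 0.11.8 and R 3.4. For alignment, miRNA set and build, the choices were not given in the sources used here. Per miRNA and library, the authors deposited a normalized signal and no raw counts. Of 18379 values above 0, 95.3% were whole multiples of 1 read within 0.02 read, and TMM factors recomputed from those reads matched the deposited scaling, so the values are TMM-scaled CPM (reads relative to library size). The reads recovered were 6.0 to 19.98 M per library, and a floor of 3 reads corresponds to 0.138 to 1.43 units. 58 miRNAs, no member among them, had fractional reads.

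The main test was limma 3.58.1 (R 4.3.3) and a mean-variance trend, applied to log2(value + 0.5), for miRNAs of at least 1 in at least 15 libraries, two-sided, with Benjamini-Hochberg adjustment and a threshold of 0.05. The table's unit was that assumed by the design. edgeR 4.0.16 and DESeq2 1.42.0 on the recovered reads were alternatives. Single values used two-sided permutation tests with 100000 resamples (exact under 10 per group). Scripts were tested on simulated data. Each library is 1 calf, per the labels. The members, lists, named miRNAs and tests were chosen with earlier results of these data known; miRNAs other than the members were named by rank of likeness or abundance. Sets combining Moderate replicate 5 with another setting, and the 18 libraries of conflicting labels, were added after seeing the data. Other alternatives were scalings, pseudocount, filter, left-out libraries, title labels and depth. No sequences were used here.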

Additional observations from a re-analysis of the deposited data

How the results depend on the processing

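The count of members past the threshold, 2 in the reported fit, was 0 with library totals alone, 0 with no filter on low values (838 miRNAs tested, 0 called by limma, 104 at an unadjusted p under 0.05), 0 with the diet of the titles, 0 in the 12 libraries with 1 diet in both labels (also without Moderate replicate 5), 0 in the 18 with conflicting labels, 1 in libraries under 12 M reads, and 5 with edgeR, with DESeq2 and with edgeR without Moderate replicate 5. Leaving out 1 library at a time gave 0 to 5. Over all miRNAs, 19 were called in the reported fit, 30 by edgeR, 52 by DESeq2 and 45 without Moderate replicate 5. The log2 fold change of miR-136, not past the test, turned positive at 0.19 with library totals alone, 0.26 with the titles, 0.31 in the 12 libraries and 0.0066 under 12 M reads (without Moderate replicate 5 it was negative with totals alone, in the 12 libraries and under 12 M reads, at -0.0924, -0.0419 and -0.1602), and, within -0.1636 to 0.0182 over left-out libraries, at 0.0122, 0.0013, 0.0182 and 0.0149 without High replicate 8, High replicate 15, Moderate replicate 11 and Moderate replicate 15. That of miR-431 turned negative at -0.0194 with the titles, -0.0286 under 12 M reads, -0.0882 in the 12 libraries without Moderate replicate 5 and -0.1035 under 12 M reads without it. With the titles, miR-433 was at 0.0333, miR-493 at 0.0839, miR-665 at 0.1267, and the log2 ratios of miR-493 and of miR-665 to miR-431 at 0.1033 and 0.1461. The count of pair ratios past the threshold, 4, was 0 without Moderate replicate 5, 0 with the titles and 0 in the 12 libraries. The count of correlated pairs in High calves, 9, was 20 by Pearson's r and 0 with library totals alone. The causes were not tested, except that subsets hold fewer libraries. The fold change of miR-370 kept its side and sign in all 48 alternatives, which do not include the deeper libraries alone. No paired analysis was possible because the labels give no replicate number that libraries of the 2 diets share. Depth limits miR-431 and miR-433 most.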
